A study of Mus musculus with 20 samples.

Results

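The interferon-stimulated effector genes described here are 39 mouse genes, chosen by name from knowledge of the interferon response, whose products act against viruses and other intracellular microbes or carry the interferon signal to the genome. Earlier results of these data were known when the genes were chosen. Of the 39 genes, 34 had at least 1 probe on the microarray, with 36 probes in all, out of 23493 probes and 15252 genes with a symbol of their own. No probe carried the symbol of *Oasl1*, *Ifi44*, *Bst2*, *Xaf1* or *Samd9l*, and these 5 members were therefore not measured here. *Stat2* and *Iigp1* had 2 probes each, and every other measured member had 1. The study injected siRNAs into the tail vein of mice and measured liver mRNA by 2-colour microarray, and the 20 mice fell into 5 groups of 4, lettered A to D. Each siRNA mouse received 40 µg of siRNA in Ringer's solution by the hydrodynamic technique, in which a large volume is injected quickly so that much of it reaches the liver, and livers were taken at 48 h. The groups were vehicle (Ringer's solution without siRNA), PPARa-M siRNA and PPARa siRNA, which target different fragments of the *Ppara* mRNA, and the control siRNAs SEAP-M, which targets secreted alkaline phosphatase, and GL3, whose target is a luciferase reporter. The meaning of the suffix M, and the strain, sex and age of the mice, are not given in the sources used here. All 20 livers were hybridised against 1 common pool of RNA from 4 vehicle mice, and whether these are the 4 vehicle mice measured singly is not stated.

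Interferons bind receptors on the cell surface, and the receptor's kinases activate STAT proteins, which join IRF9 to form a factor that binds interferon-stimulated response elements before many genes. The products of these genes degrade viral RNA, block translation, attack the membranes around microbes or feed back on the pathway. In liver, hepatocytes and the resident macrophages both respond, and double-stranded RNA, the form of an siRNA, is among the molecules that innate sensors can recognise.

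Values below are log2 ratios of a mouse's liver over the vehicle pool, converted from the deposited log10 ratios, so that 0 is the level of the pool, a difference of 1 is 2-fold, and nothing can be said of the level of a member in absolute terms. The direction, mouse over pool, is likely rather than stated: the sample titles name the pool first and the mouse second. The pool's channel is labelled Cy3 and the mouse's Cy5. The group mean of *Ppara* was lowest with the siRNAs against it, although PPARa mouse A stood at 0.09, above the pool. Over all probes the lowest correlation between any pair of arrays was -0.2555 (Pearson), between vehicle D and PPARa-M B. *Ppara* stood at -0.71 ± 0.23 (SD, n = 4) with PPARa-M siRNA, against 0.18 ± 0.43 with SEAP-M siRNA, and at -0.24 ± 0.23 with PPARa siRNA, against 0.10 ± 0.09 with GL3 siRNA and 0.06 ± 0.15 with vehicle. The fall relative to the control siRNA passed the test for PPARa-M siRNA (limma, log2 difference -0.89, adjusted p = 0.0103, and -0.996 without mice C and D, adjusted p = 0.0207) and not for PPARa siRNA (-0.34, adjusted p = 1.00). Of all 190 pairs of mice, PPARa-M mice C and D had the smallest median difference over all probes, 0.0910, where other pairs within a group differed by 0.0990 to 0.2285, and the highest Spearman correlation, 0.619. Their Pearson correlation, 0.529, was below that of PPARa-M mice A and B, 0.638, and the 99th percentile of their differences, 1.32, lay within the 0.791 to 1.711 of other pairs within a group. The sources do not say whether C and D share an RNA extract, and the members' comparisons that rest on them are given with and without them, as are other genes named with an adjusted p. Because whole liver was measured, fewer cells of a type and less RNA per cell cannot be told apart.

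The sequence before the start of several members shows the element through which interferon acts, and 4 stretches are printed here, 3 from members that were high in mice C and D and 1, *Oas3*, from a member that was close to the pool in every mouse. Promoters are RefSeq sequences of build GRCm38.p6, from 250 bases before a gene's start to 50 bases after it, printed 5′ to 3′ on the gene's strand. Capitals mark matches to GAAANNGAAA, the core of the response element, searched on both strands, so that a match on the opposite strand shows its reverse complement in the line, and overlapping matches are capitalised together.
Ifit1 (chr19:34640760-34640838, plus strand): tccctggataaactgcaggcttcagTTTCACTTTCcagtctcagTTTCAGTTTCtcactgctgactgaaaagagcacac
Isg15 (chr4:156200850-156200921, minus strand): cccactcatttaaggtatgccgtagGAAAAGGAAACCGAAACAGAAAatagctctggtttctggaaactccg
Igtp (chr11:58199497-58199555, plus strand): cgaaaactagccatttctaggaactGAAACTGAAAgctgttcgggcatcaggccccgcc
Oas3 (chr5:120777700-120777759, minus strand): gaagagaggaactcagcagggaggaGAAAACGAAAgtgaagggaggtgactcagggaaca
*Ifit1* held 2 matches, *Isg15* held 3 that overlapped, and *Igtp* and *Oas3* held 1 each. Promoters were at hand for 24 of the 34 measured members, and 13 of the 24 (54.2%) held the motif, against 1079 of 27025 genes in the promoter table (3.99%). In 11 of these 13 a match lay before the start, and in *Trim21* and *Ifitm3* the matches lay within or after it. The mean of mice C and D had a median of 1.40 over the 13 members with a match (0.07 to 4.13) and of 0.89 over the 11 without (0.53 to 2.29), and the ranges overlapped. A match of letters is a description, not a binding site, and *Isg15* was joined to its promoter by symbol, because the array annotation and RefSeq give it different gene numbers.

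Replicate mice differed most in the PPARa-M group. There, 20 of the 34 members (58.8%) spanned more than 1 on the log2 scale from the lowest to the highest of the 4 mice, against 5.54% of all genes. The same span was passed by 3 members with PPARa siRNA (*Rsad2*, *Ifit1* and *Igtp*, where the share of all genes was 3.99%), by 2 with SEAP-M siRNA (*Rsad2* and *Ifit2*, 3.65%), and by none with GL3 siRNA (2.65%) or vehicle (2.09%). The median range of a member was 1.23 with PPARa-M siRNA and 0.34 for all genes, and in the other groups it lay between 0.29 with GL3 siRNA and 0.47 with SEAP-M siRNA, where all genes had medians of 0.24 to 0.29. Even in vehicle mice, given no siRNA, the median range of the members was 0.42 against 0.27 for all genes. The widest member was *Ifit1* in the PPARa-M group, whose highest mouse was 21.9-fold above the lowest.

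**Figure D1:**
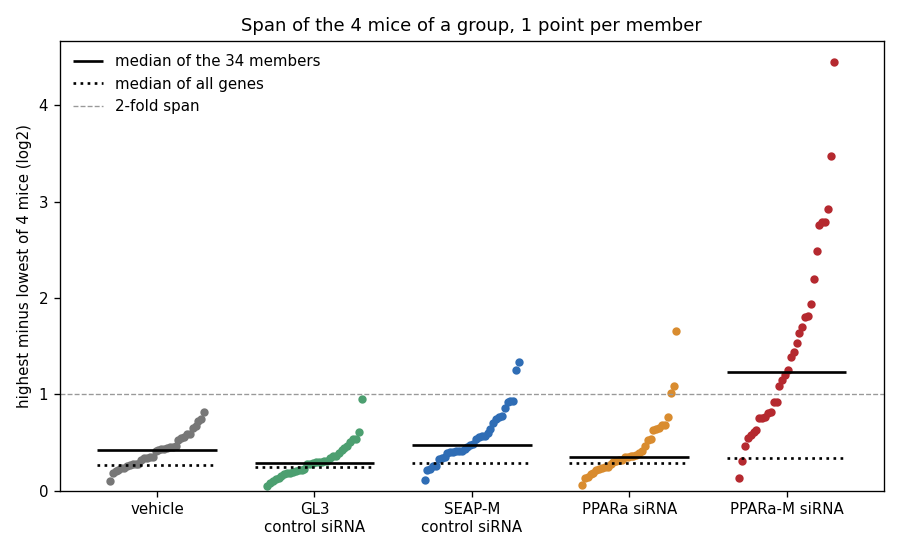
Range from the lowest to the highest of the 4 mice (log2) for each of the 34 measured members, by group; each point is 1 member, the solid line the median of the members, the dotted line the median of all genes and the dashed line a 2-fold range. The PPARa-M group has a median of 1.23, and 20 members lie above the 2-fold line there, against 0 to 3 in the other groups.

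The wide ranges in the PPARa-M group were topped by the same pair of mice in nearly every member. Mice C and D were the 2 highest of the 4 for 33 of the 34 members, the exception being *Oas1b*, while the same held for 29.0% of all genes. For 30 members both mice were above all other 18 mice, which was so for 3.75% of all genes, and the exceptions were *Oas1b*, *Oas3*, *Mx1* and *Ifitm3*. Both mice exceeded 1 for 15 members, against 0.544% of all genes (83 genes), so that 18.1% of the genes beyond that level were members. The median over the members was 0.92 in C and 0.92 in D, against 0.14 in A and -0.06 in B, and in the other 4 groups the mouse medians lay between -0.13 and 0.23. For no member did C and D differ by more than 0.33. The 4 vehicle mice also ranked alike across members on a much smaller scale: A and D were the 2 highest for 21 of 34 members (21.0% of all genes), with medians of 0.16 and 0.11 against -0.12 and -0.06 in B and C.

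**Figure D2:**
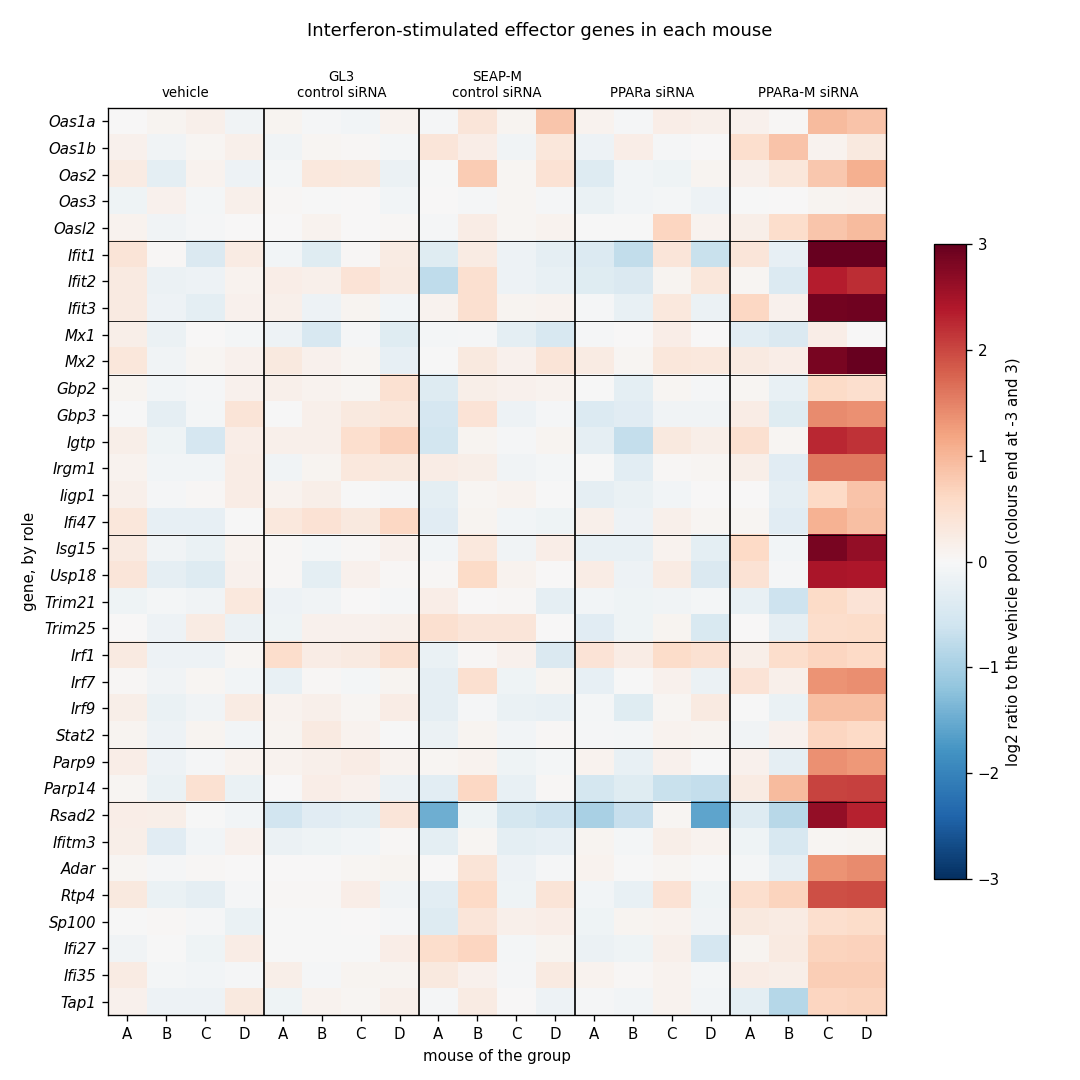
Log2 ratio of liver over the vehicle pool for the 34 measured members (one line of cells each, ordered by role) in each of the 20 mice, in colours from blue, below the pool, to red, above it, with the ends of the colour scale standing for all values beyond it. Mice C and D of the PPARa-M group are the columns above the pool for all 34 members.

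The Ifit proteins, which bind viral RNA and hold back its translation, showed the widest spread. *Ifit1* stood at 0.36, -0.26, 4.19 and 4.07 in PPARa-M mice A to D and at -0.42, -0.73, 0.36 and -0.66 in the PPARa mice. In the controls, *Ifit1* was 0.39, 0.03, -0.43 and 0.24 with vehicle, -0.07, -0.37, 0.03 and 0.24 with GL3 siRNA and -0.36, 0.24, -0.16 and -0.27 with SEAP-M siRNA. C and D lay far above every other mouse, whereas A and B lay within the range of the other groups. *Ifit3* stood at 0.63, 0.14, 2.90 and 2.93 with PPARa-M siRNA and -0.04, -0.22, 0.31 and -0.18 with PPARa siRNA, and at 0.28, -0.16, -0.30 and 0.13 with vehicle, 0.15, -0.15, 0.07 and -0.08 with GL3 siRNA and 0.10, 0.49, 0.08 and 0.10 with SEAP-M siRNA. Here A was also above every mouse of the other groups, although far below C and D. *Ifit2* stood at 0.05, -0.40, 2.36 and 2.22 with PPARa-M siRNA and -0.35, -0.43, 0.08 and 0.34 with PPARa siRNA, and at 0.26, -0.19, -0.16 and 0.11 with vehicle, 0.21, 0.14, 0.41 and 0.26 with GL3 siRNA and -0.75, 0.49, -0.16 and -0.23 with SEAP-M siRNA. B was the lowest PPARa-M mouse for all of the Ifit genes, and the SEAP-M mice spread more widely for *Ifit2* than for the other members of the family. The stretch of the *Ifit1* promoter printed above belongs to the member with the largest values of all, a mean of 17.5-fold over the pool in C and D.

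Isg15, a ubiquitin-like protein attached to other proteins during the response, and Usp18, the protease that removes it and also restrains the interferon receptor, followed the same pattern. *Isg15* stood at 0.60, -0.08, 2.85 and 2.63 in PPARa-M mice A to D and -0.23, -0.23, 0.11 and -0.30 in PPARa mice, and at 0.27, -0.11, -0.20 and 0.11 with vehicle, 0.05, -0.06, 0.04 and 0.13 with GL3 siRNA and -0.08, 0.31, -0.10 and 0.20 with SEAP-M siRNA. *Usp18* stood at 0.43, -0.04, 2.45 and 2.43 with PPARa-M siRNA and 0.23, -0.16, 0.24 and -0.44 with PPARa siRNA, and at 0.36, -0.27, -0.38 and 0.13 with vehicle, 0.05, -0.30, 0.14 and 0.04 with GL3 siRNA and 0.03, 0.56, 0.12 and 0.01 with SEAP-M siRNA. For both genes mouse B was close to the pool, A was somewhat above it, and C and D were above all others. The ubiquitin ligases lay nearer to the pool: *Trim25*, which modifies the RNA sensor RIG-I, stood at 0.01, -0.27, 0.53 and 0.54 with PPARa-M siRNA and -0.35, -0.14, 0.08 and -0.46 with PPARa siRNA, and at 0.02, -0.15, 0.24 and -0.17 with vehicle, -0.14, 0.13, 0.13 and 0.15 with GL3 siRNA and 0.49, 0.37, 0.36 and 0.01 with SEAP-M siRNA. Its values in C and D were only just above the highest SEAP-M mouse. *Trim21*, a receptor for antibody-coated virus, was at 0.58 in C and 0.40 in D, and at -0.62 in B.

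Among the Mx proteins, large GTPases that trap viral components, the pair on the array differed. *Mx2* stood at 0.28, 0.21, 2.84 and 3.00 in PPARa-M mice A to D and 0.24, 0.05, 0.33 and 0.32 in PPARa mice, and at 0.33, -0.10, 0.07 and 0.12 with vehicle, 0.29, 0.13, 0.06 and -0.24 with GL3 siRNA and 0.00, 0.28, 0.14 and 0.39 with SEAP-M siRNA. *Mx1* stood at -0.31, -0.43, 0.20 and 0.01 with PPARa-M siRNA and -0.04, 0.02, 0.20 and 0.00 with PPARa siRNA, and at 0.17, -0.17, 0.00 and -0.05 with vehicle, -0.15, -0.49, -0.02 and -0.36 with GL3 siRNA and -0.06, -0.04, -0.29 and -0.48 with SEAP-M siRNA. The mean of C and D for *Mx2* was 7.56-fold over the pool and clear of all other mice, while for *Mx1* C was level with PPARa mouse C and D lay among the others. *Rsad2*, whose product viperin makes a nucleotide analogue that stops viral polymerases, stood at -0.39, -0.83, 2.64 and 2.32 with PPARa-M siRNA and -0.98, -0.68, 0.07 and -1.58 with PPARa siRNA. In its controls it was 0.19, 0.16, -0.01 and -0.09 with vehicle, -0.59, -0.34, -0.30 and 0.36 with GL3 siRNA and -1.46, -0.13, -0.53 and -0.63 with SEAP-M siRNA. *Rsad2* was wide in every group except vehicle, with 1 SEAP-M mouse (A) and 1 PPARa mouse (D) far below the pool.

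**Figure D3:**
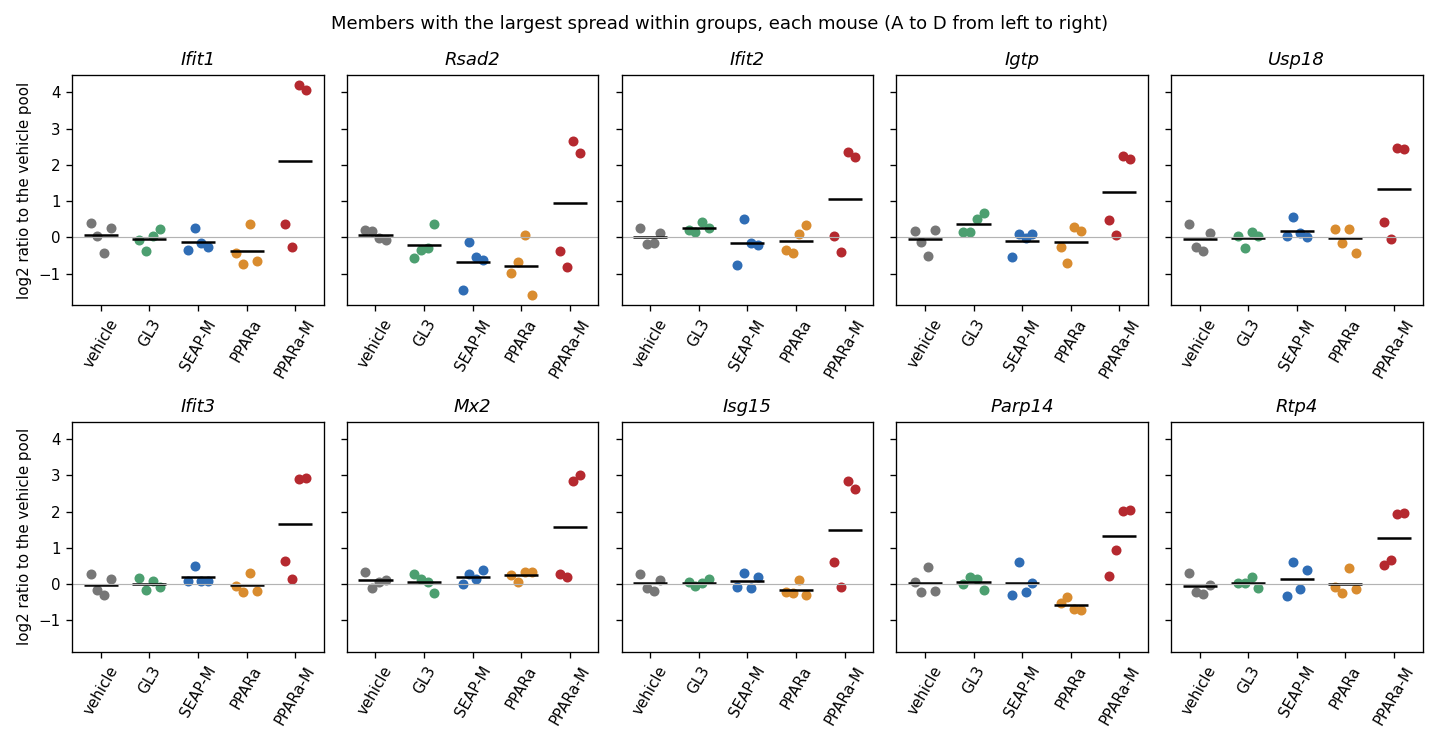
Log2 ratio over the vehicle pool in each of the 20 mice for the 10 members with the largest mean within-group SD, with mice A to D from left to right in each group and a bar at the group mean. For all 10 members the points of PPARa-M mice C and D are above every other mouse.

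The 2′-5′ oligoadenylate synthetases, which make the messenger that activates RNase L, were nearer to the pool. *Oas3* had the smallest spread of all members and stood at -0.02, 0.02, 0.09 and 0.11 in PPARa-M mice A to D and -0.19, -0.09, -0.05 and -0.16 in PPARa mice, with -0.13, 0.12, -0.05 and 0.14 in vehicle, 0.04, 0.00, 0.00 and -0.09 in GL3 and 0.02, -0.04, 0.06 and -0.04 in SEAP-M mice. The lowest mouse was at -0.19 and the highest at 0.14, and the groups overlapped. Its promoter holds the match printed above. *Oas2* stood at 0.15, 0.35, 0.81 and 1.07 with PPARa-M siRNA and -0.39, -0.08, -0.13 and 0.07 with PPARa siRNA, and at 0.25, -0.29, 0.11 and -0.16 with vehicle, -0.05, 0.33, 0.30 and -0.18 with GL3 siRNA and -0.01, 0.76, 0.05 and 0.43 with SEAP-M siRNA. SEAP-M mouse B was close to PPARa-M mouse C. *Oasl2*, a family member with ubiquitin-like domains, stood at 0.17, 0.52, 0.83 and 0.94 with PPARa-M siRNA and -0.01, -0.02, 0.63 and 0.11 with PPARa siRNA, and at 0.11, -0.10, -0.04 and 0.00 with vehicle, 0.00, 0.10, 0.02 and 0.03 with GL3 siRNA and -0.03, 0.22, 0.05 and 0.10 with SEAP-M siRNA. *Oas1a* was at 0.95 in C and 0.86 in D, with SEAP-M mouse D at 0.83. *Oas1b* was the only member highest in other PPARa-M mice, with 0.49 in A and 0.85 in B against 0.10 in C and 0.28 in D.

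The interferon-inducible GTPases of the Irg and Gbp families attack the vacuoles in which microbes live. *Igtp* stood at 0.47, 0.05, 2.25 and 2.17 in PPARa-M mice A to D and -0.27, -0.72, 0.29 and 0.17 in PPARa mice, and at 0.18, -0.12, -0.51 and 0.21 with vehicle, 0.15, 0.15, 0.51 and 0.68 with GL3 siRNA and -0.55, 0.09, -0.02 and 0.08 with SEAP-M siRNA. GL3 mice C and D and PPARa-M mouse A were the next highest after C and D. *Ifi47* stood at 0.06, -0.35, 1.04 and 0.91 with PPARa-M siRNA and 0.15, -0.15, 0.14 and 0.05 with PPARa siRNA, and at 0.34, -0.25, -0.24 and -0.01 with vehicle, 0.33, 0.43, 0.29 and 0.63 with GL3 siRNA and -0.34, 0.08, -0.09 and -0.13 with SEAP-M siRNA. All 4 GL3 mice were above the pool for *Ifi47*. In C and D, *Irgm1* was at 1.58 and 1.58, *Gbp3* at 1.43 and 1.38, and *Gbp2* at 0.57 and 0.51. The probes of *Iigp1* differed in size but not in direction there, with 0.30 and 0.53 on the one and 0.91 and 1.20 on the other.

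Among the transcription factors that carry the signal, *Irf7*, which amplifies interferon production, stood at 0.40, 0.14, 1.36 and 1.40 in PPARa-M mice A to D and -0.25, -0.01, 0.14 and -0.17 in PPARa mice, and at 0.04, -0.11, 0.07 and -0.07 with vehicle, -0.23, 0.03, -0.06 and 0.08 with GL3 siRNA and -0.27, 0.49, -0.13 and 0.09 with SEAP-M siRNA. *Irf1* stood at 0.19, 0.53, 0.65 and 0.59 with PPARa-M siRNA and 0.41, 0.23, 0.55 and 0.45 with PPARa siRNA, and at 0.27, -0.16, -0.15 and 0.06 with vehicle, 0.52, 0.23, 0.28 and 0.47 with GL3 siRNA and -0.21, 0.03, 0.13 and -0.44 with SEAP-M siRNA. *Irf1* was above the pool in every PPARa-M, PPARa and GL3 mouse, with all 4 PPARa-M mice above all 4 SEAP-M mice, and the difference between these groups was 0.48 without C and D (limma adjusted p = 0.0915). *Stat2*, a subunit of the factor that binds the response element, stood at -0.11, 0.12, 0.65 and 0.59 with PPARa-M siRNA and -0.04, -0.07, 0.11 and 0.07 with PPARa siRNA, and at 0.09, -0.15, 0.09 and -0.08 with vehicle, 0.08, 0.26, 0.10 and -0.02 with GL3 siRNA and -0.17, 0.08, -0.07 and 0.03 with SEAP-M siRNA. These *Stat2* values are means of probes that disagreed, with 1.12 and 1.05 in C and D on the one and 0.19 and 0.13 on the other. *Irf9*, its DNA-binding partner, was at 0.89 in C and 0.89 in D.

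*Parp14*, an ADP-ribosyltransferase that interferon induces, was the member with the clearest difference between the *Ppara* siRNAs. It stood at 0.23, 0.95, 2.02 and 2.05 in PPARa-M mice A to D and -0.53, -0.35, -0.68 and -0.70 in PPARa mice, and at 0.06, -0.21, 0.46 and -0.19 with vehicle, 0.00, 0.20, 0.14 and -0.17 with GL3 siRNA and -0.31, 0.62, -0.21 and 0.04 with SEAP-M siRNA. All PPARa mice were below every other mouse, and PPARa-M mice B, C and D were above every other mouse. *Parp9*, its partner, was at 1.37 in C and 1.30 in D. *Rtp4*, a chaperone of receptors that also binds nucleic acid, stood at 0.51, 0.66, 1.93 and 1.95 with PPARa-M siRNA and -0.08, -0.23, 0.44 and -0.13 with PPARa siRNA, and at 0.30, -0.21, -0.27 and -0.03 with vehicle, 0.04, 0.02, 0.20 and -0.10 with GL3 siRNA and -0.33, 0.61, -0.13 and 0.38 with SEAP-M siRNA. For *Rtp4* mice A and B were also well above the pool, and SEAP-M mouse B was above A but below B.

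The remaining effectors had small to moderate values. *Ifi35* stood at 0.23, 0.17, 0.74 and 0.75 in PPARa-M mice A to D and 0.10, 0.02, 0.11 and -0.06 in PPARa mice, and at 0.25, -0.06, -0.09 and -0.03 with vehicle, 0.17, -0.04, 0.08 and 0.08 with GL3 siRNA and 0.28, 0.14, -0.04 and 0.26 with SEAP-M siRNA. *Sp100*, a component of nuclear bodies, stood at 0.29, 0.24, 0.51 and 0.55 with PPARa-M siRNA and -0.12, 0.09, 0.10 and -0.11 with PPARa siRNA, and at -0.02, 0.03, -0.04 and -0.20 with vehicle, -0.01, 0.00, 0.00 and -0.04 with GL3 siRNA and -0.40, 0.35, 0.16 and 0.19 with SEAP-M siRNA. Both belonged to the 4 members of smallest spread, with *Stat2* and *Oas3*, and for both all PPARa-M mice were above the pool. The small spread of *Stat2* is that of the mean of its probes. On 1 of them it stood at 0.07, 0.13, 1.12 and 1.05 in PPARa-M mice A to D. *Ifi27* stood at 0.09, 0.26, 0.68 and 0.69 with PPARa-M siRNA and -0.17, -0.13, 0.14 and -0.49 with PPARa siRNA, and at -0.10, -0.01, -0.14 and 0.22 with vehicle, -0.01, -0.02, -0.01 and 0.20 with GL3 siRNA and 0.52, 0.65, -0.05 and 0.08 with SEAP-M siRNA, where SEAP-M mice A and B nearly reached C and D. *Adar*, which edits double-stranded RNA, was at 1.34 in C and 1.42 in D. *Tap1*, the peptide transporter of antigen presentation, was at 0.65 and 0.67 there but at -0.86 in B, and *Ifitm3*, which blocks viral entry, was at 0.07 and 0.07.

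To ask whether the members differed between groups, all 15252 genes were fitted together in limma with the 5 groups of 4 mice, p-values were adjusted over all genes by Benjamini-Hochberg, and differences are log2 with their SE. All groups shared 1 estimate of spread for each gene. The median SD of a member was 0.61 with PPARa-M siRNA and 0.13 to 0.21 in the other groups. The SE may therefore be too small where PPARa-M mice are compared, and too large where they are not. With PPARa-M siRNA against SEAP-M siRNA, 3 members were higher, against 1.04% of all genes, and none was lower, while before adjustment 21 were higher and 0 lower at p under 0.05, and 7.68% of all genes were higher at that p. The 3 were *Irf1* (0.49 ± 0.21 against -0.12 ± 0.25, SD, n = 4 each, difference 0.61, SE 0.13, limma adjusted p = 0.0193), *Parp14* (1.31 ± 0.88 against 0.03 ± 0.42, difference 1.28, SE 0.31, adjusted p = 0.0337) and *Rtp4* (1.26 ± 0.79 against 0.13 ± 0.43, difference 1.13, SE 0.29, adjusted p = 0.0428). In sign, 33 of the 34 members were positive, with a median difference of 0.55 against -0.01 for all genes. *Ifit1* had the widest difference, 2.23, and did not pass (SE 0.72, limma adjusted p = 0.0977). Leaving out mice C and D, no member was higher, 18 of 34 were positive, the median was 0.01, and *Tap1* was lower (-0.60, limma adjusted p = 0.0419). Leaving out C alone or D alone left 0 members higher, as did SEAP-M mouse A, and 1 was higher without SEAP-M mouse C, whereas 11 were higher without PPARa-M mouse A and 17 without B. With each of the 20 mice left out in turn, *Rtp4* lost its call 11 times, *Parp14* 4 and *Irf1* 3. Over all genes, the number higher went from 158 to 65 without C, 79 without D, 53 without SEAP-M mouse A, 55 without SEAP-M mouse C, 216 without PPARa-M mouse A and 160 without B, and to 329 without C and D together. Genes lower over the array numbered 230 with all mice and 331 without C and D. After quantile normalization no gene at all was higher, with only the compared groups in the fit 0 members and 13 genes were, and with limma's array weights 22 members and 370 genes were.

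**Figure D4:**
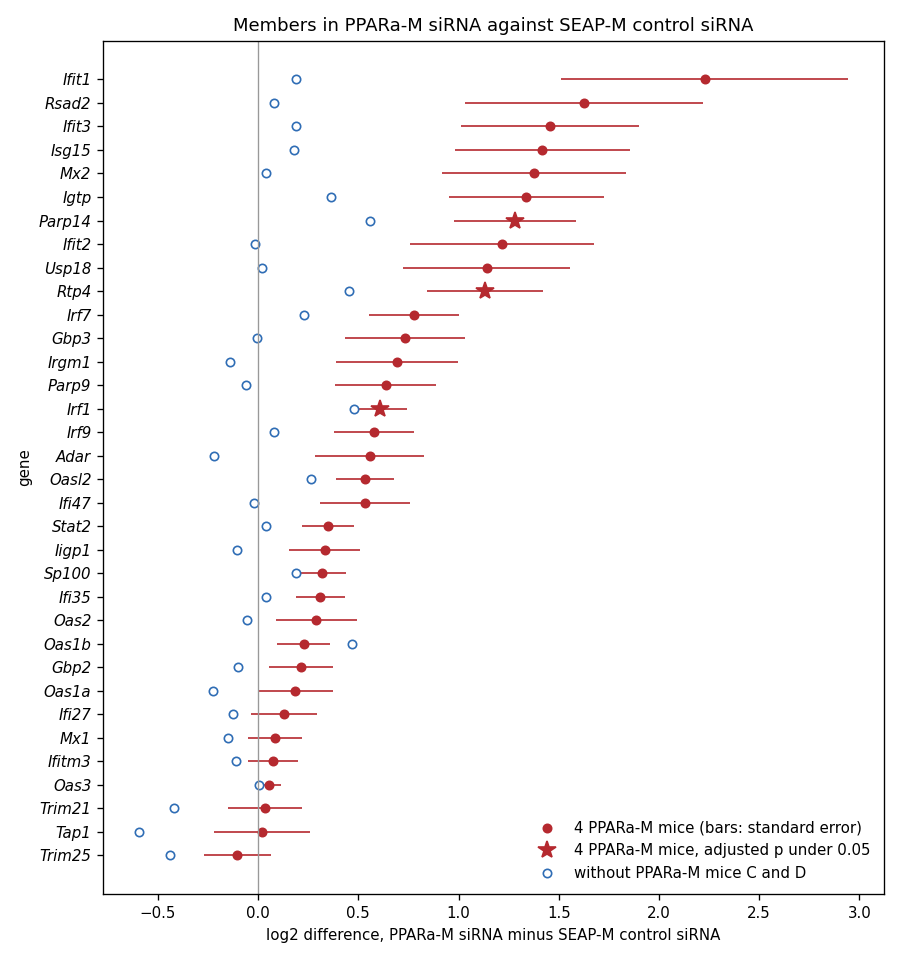
Log2 difference between PPARa-M and SEAP-M siRNA for the 34 measured members, with the SE from limma as bars, stars for an adjusted p under 0.05, and open circles for the same difference without PPARa-M mice C and D. With all mice 33 members are above 0, and without C and D 18 are.

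Against vehicle, PPARa-M siRNA gave 9 higher members (3.36% of all genes) and none lower: *Rtp4* (difference 1.32, limma adjusted p = 0.0140), *Oasl2* (0.62, 0.0187), *Parp14* (1.28, 0.0197), *Sp100* (0.46, 0.0293), *Irf7* (0.84, 0.0316), *Ifi35* (0.45, 0.0319), and *Ifit3*, *Irf1* and *Isg15* with adjusted p-values of 0.0328, 0.0333 and 0.0470. The median difference was 0.54, with 32 of 34 positive. Without mice C and D the median was 0.01 and the only higher member was *Oas1b* (0.61, limma adjusted p = 0.00813), with *Tap1* (-0.60, adjusted p = 0.0198) and *Trim21* (-0.43, adjusted p = 0.0461) lower. The 9 became 4 without C, 3 without D, 15 without A, 18 without B, and 5, 4, 5 and 1 without vehicle mice A, B, C and D. With each of the 20 mice left out in turn, *Isg15* lost its call 18 times, and *Ifit3* and *Irf1* 6 times each. *Irf7* and *Ifi35* lost it 5 times each, *Sp100* 4, *Oasl2* and *Parp14* 1 each, and *Rtp4* never. Over all genes, the 513 higher became 441, 515, 412 and 248 without PPARa-M mice C, D, A and B, 203, 415, 469 and 88 without the vehicle mice, and 928 without C and D together. Genes lower over the array numbered 597 with all mice and 1121 without C and D. After quantile normalization 0 members and 6 genes were higher, and with array weights 23 members and 486 genes.

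PPARa-M siRNA against PPARa siRNA, both aimed at *Ppara*, gave 12 higher members (4.79% of all genes) and none lower. *Parp14* led with a difference of 1.88 (limma adjusted p = 0.00101), followed by *Rtp4* (1.27, 0.0101), *Irf7* (0.90, 0.0177), *Isg15* (1.66, 0.0230), *Ifit3* (1.68, 0.0245) and *Oas2* (0.73, 0.0305), and *Ifi27*, *Ifi35*, *Igtp*, *Ifit1*, *Sp100* and *Usp18* also passed. The median was 0.50, with 32 of 34 positive, and without C and D it was 0.11. *Parp14* (1.16, limma adjusted p = 0.00690) and *Oas1b* (0.66, adjusted p = 0.00477) were higher without C and D, and *Tap1* was lower (-0.55, adjusted p = 0.0300). Single mice moved the 12 to 16 without PPARa-M mouse A, 21 without B, 3 without C and 2 without D, and to 2, 7 and 5 without PPARa mice A, B and D. Over all genes, the 730 higher became 664, 639, 661 and 670 without PPARa-M mice A to D, 548, 708 and 561 without PPARa mice A, B and D, and 962 without PPARa-M mice C and D together. Genes lower over the array numbered 645 with all mice and 950 without PPARa-M mice C and D. After quantile normalization 1 member and 201 genes were higher, and with array weights 26 members and 924 genes. In the same comparison 4 of 13 acute phase proteins of hepatocytes were lower, with a list median of -1.003. Lower too were 1 of 9 neutrophil markers, with a list median of -1.22, and 1 gene each of the macrophage and B cell lists. Of 13 antigen presentation genes 3 were lower, and of 13 sensors of nucleic acid 3 were higher. The hepatocyte and plasmacytoid dendritic cell lists had 1 higher gene each. Of 13 receptors and signalling proteins, 1 was higher and 1 lower. The part of these genes in the members' values was not tested.

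The *Ppara* siRNAs were also compared after each was set against its own control siRNA. This difference of differences passed for *Parp14* alone (1.89, SE 0.43, limma adjusted p = 0.0462), against 0.544% of all genes, with 32 of 34 members positive and a median of 0.57. Without C and D it was 1.17 for *Parp14* and did not pass (limma adjusted p = 0.0903), and the median over the members was 0.15. Genes higher went from 83 to 27 without C and D. *Parp14* lost the call in 16 of the 20 settings that each left out 1 mouse, and 5 members passed without PPARa-M mouse B, with 93 genes higher over the array.

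No member passed in the remaining comparisons. These hold no PPARa-M mice, so the shared spread may make their SE too large for members that varied most in that group. PPARa siRNA against GL3 siRNA gave 0 higher or lower members (0.0525% of all genes higher), a median of -0.10, and 1 member at an unadjusted p under 0.05 (4.95% of all genes in either direction): *Mx1*, 0.30 (limma, unadjusted p = 0.0400). *Parp14* was next, at -0.61 (limma, unadjusted p = 0.0611). PPARa siRNA against vehicle gave 0 members (0.0393% of all genes higher), with *Irf1* (0.41, limma, unadjusted p = 0.00599) and *Oas3* (-0.15, unadjusted p = 0.0336) under 0.05 before adjustment (5.55% of all genes). SEAP-M siRNA against vehicle gave 0 members by limma (0% of all genes higher), none of them at an unadjusted p under 0.05 (5.85% of all genes), the smallest being *Trim25* (0.32, unadjusted p = 0.0700) and *Ifi27* (0.31, unadjusted p = 0.0777). GL3 siRNA against vehicle likewise gave 0 (0% of all genes higher), with *Irf1* alone under 0.05 before adjustment (0.37, limma, unadjusted p = 0.0108, 2.77% of all genes), followed by *Ifi47* (0.46, unadjusted p = 0.0568). With 4 mice a group these values bound no absence of a change, and p-values measure the spread between these mice only.

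Other genes of the pathway were taken by list. Over the array, 158 of 15252 genes were higher (1.04%) and 230 lower with PPARa-M siRNA against SEAP-M siRNA. Of the interferon genes, 5 of 11 were on the array, none passed in PPARa-M siRNA against SEAP-M siRNA or vehicle, and none exceeded 0.5 in C or D. Of receptors and signalling proteins, 13 of 15 were measured: *Socs1*, the feedback inhibitor, rose against SEAP-M siRNA (0.79, limma adjusted p = 0.0292), at 1.33 and 1.42 in C and D and 0.48 and 0.56 in A and B, and *Ifngr2*, a chain of the interferon gamma receptor, fell (-0.53, adjusted p = 0.0348). Of sensors of nucleic acid, 13 of 21 were measured and 4 rose: *Eif2ak2*, the kinase PKR (0.51, limma adjusted p = 0.0142), *Dhx58* (1.11, 0.0262), *Zc3hav1* (0.72, 0.0297) and *Zbp1* (1.09, 0.0428). In antigen presentation, 3 of 13 measured genes fell and none rose: *H2-Q10* (-0.75, limma adjusted p = 0.00763), *H2-D1* (-0.60, 0.0167) and *H2-K1* (-0.56, 0.0425). Without C and D, *Ifngr2* (-0.68, limma adjusted p = 0.0238), *Eif2ak2* (0.62, 0.0176), *H2-Q10* (-0.67, 0.0222) and *H2-D1* (-0.68, 0.0260) still passed against SEAP-M siRNA. The calls of *Socs1* (0.37, limma adjusted p = 0.164), *Dhx58* (0.48, 0.123), *Zc3hav1* (0.30, 0.125), *Zbp1* (0.40, 0.225) and *H2-K1* (-0.65, 0.0511) were lost. The chemokines gave no call among 6 measured, but *Cxcl10* split the group, at -1.11 and -1.13 in A and B and 1.44 and 1.51 in C and D.

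Markers of other cells in the liver were set beside the members. In C and D the list medians were -0.03 and -0.04 for leukocytes in general (7 genes; -0.80 to 0.31 in the other 18 mice), -0.08 and -0.07 for macrophages and Kupffer cells (9 genes; -0.33 to 0.28), -0.02 and -0.07 for T and NK cells (14 genes; -0.12 to 0.23) and -0.21 and -0.23 for neutrophils (9 genes; -0.40 to 3.30). All of these lay within the range of the other mice, as did the markers of hepatocytes, with -0.33 and -0.26. The B cell markers (6 genes) were at -0.12 in C and -0.16 in D, against -0.14 to 0.07 in the other 18 mice, so that D was the lowest of all, and *Ighm*, the heavy chain of IgM, fell against vehicle (-0.33, limma adjusted p = 0.0150, and -0.21 without C and D, adjusted p = 0.0623). Of the plasmacytoid dendritic cell list, with 4 genes at medians of 0.16 and 0.03, only *Klk1* passed against vehicle (2.32, limma adjusted p = 0.0348, and 2.78 without C and D, adjusted p = 0.0300), with 1.66 to 3.17 in the PPARa-M mice and 2.33 in SEAP-M mouse D. No gene of these lists passed against SEAP-M siRNA. PPARa mouse D, with the lowest *Rsad2* of all mice, had the highest neutrophil markers (3.30) and acute phase proteins of hepatocytes (1.45). Its median over the members was -0.03. SEAP-M mouse A had the next lowest *Rsad2* (-1.46), and the neutrophil medians of the SEAP-M mice lay between -0.40 and -0.07. These values are ratios to the pool, so the defining markers of liver cannot be checked as levels, and their part in the members' values was not tested.

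**Figure D5:**
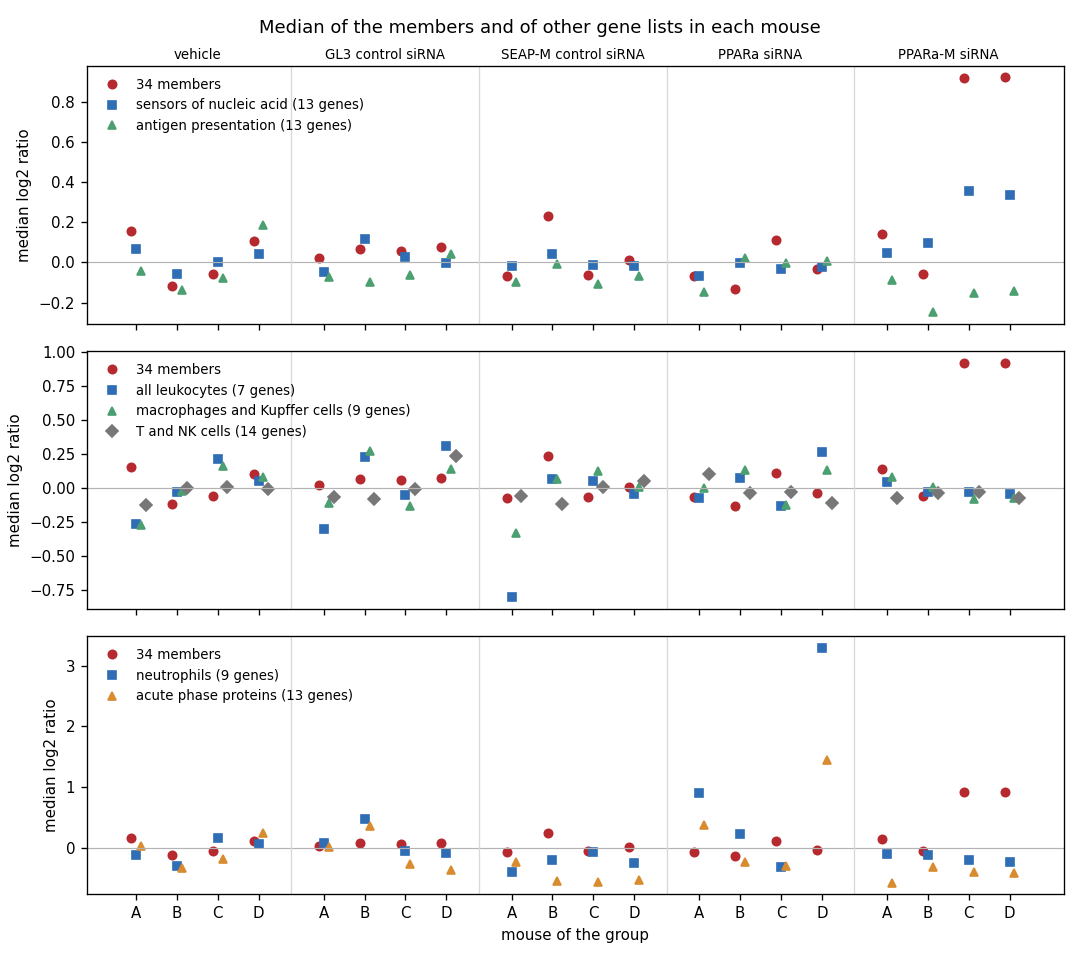
Median log2 ratio over the vehicle pool in each of the 20 mice for the members in each of 3 panels, set beside sensors of nucleic acid and antigen presentation, beside leukocyte, macrophage and T and NK cell markers, and beside neutrophil markers and acute phase proteins. Members and sensors of nucleic acid are highest in PPARa-M mice C and D, where the medians of the leukocyte, macrophage, T and NK cell and neutrophil markers stay within the range of the other mice.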

How the data were processed

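Liver RNA of 20 mice, 4 in each of 5 groups, was hybridised singly against 1 pool of vehicle RNA on a custom 2-colour oligonucleotide array. The authors deposited 1 table of log10 ratios, whose values run to limits of 2 and -2. Background correction, normalization and any dye swap are not given in the sources used here, and the table holds no intensities, so precision is limited by the number of arrays. Array medians lay between -0.0093 and 0.006 on the log10 scale, and 40 values were at the limit, 8 of them in PPARa-M mouse C and 7 in D. Probes were named from the platform annotation: 18790 had 1 symbol, 65 several and 4638 none. Probe sequences were not analysed here, so cross-hybridisation between related members (Oas, Ifit, Mx, Gbp) was not checked. Ratios were converted to log2, and probes of 1 gene averaged. All genes were fitted in limma 3.58.1 (R 4.3.3; lmFit, eBayes, 5 group means, no covariate) with Benjamini-Hochberg adjustment at 0.05, after the script was tested on simulated data. No probe was filtered. Python 3.11.15 was used for descriptions, and figures were drawn with matplotlib 3.10.9.

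Groups came from the sample titles. The members, the lists and the tests were chosen with earlier results of these data known. Values in every mouse are given for the 10 members with the largest and the 4 with the smallest mean within-group SD, and for up to 6 members with the smallest adjusted p in each comparison, or the 2 with the smallest unadjusted p where none passed. Other members are given for PPARa-M mice C and D, or by name where a count turned on them, and were chosen after their values were seen. Alternatives were centring or quantile normalization of arrays, array weights, robust moderation, fits of the compared groups only, the letter as a block, values at the limit as missing, the median of probes, an SD over 0.5 in place of a span, and leaving out mice. Averaging C and D, and the span of the 3 closest mice, were added after seeing the data. The study's methods name 8 vehicle profiles, of which 4 are used here.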

Additional observations from a re-analysis of the deposited data

Results flagged for a closer look

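Within groups of 4 mice, 4 of the 115 sets of values examined held a mouse far from the others by Dixon's test, where chance gives about 1 in 20. *Ifi27* was high in GL3 mouse D (0.20), *Trim25* low in GL3 mouse A (-0.14), *Ifit3* high in SEAP-M mouse B (0.49) and *Isg15* high in PPARa mouse C (0.11). PPARa-M mice C and D are not among them, since the test looks for 1 mouse and they were high together. For *Parp14*, the change with PPARa-M siRNA from SEAP-M siRNA exceeded that with PPARa siRNA from GL3 siRNA by 1.89 on the log2 scale (limma adjusted p = 0.0462).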

How the results depend on the processing

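Counts of higher members, in the order PPARa-M against SEAP-M siRNA, vehicle and PPARa siRNA and then the difference of differences, were 3, 9, 12 and 1. They became 0, 0, 1 and 0 after quantile normalization and with only the compared groups in the fit, 22, 23, 26 and 13 with array weights, and 0, 3, 3 and 0 with C and D averaged as 1 mouse. Without C and D they were 0, 1, 2 and 0, with 1, 2 and 1 lower members in the first 3 comparisons and medians of 0.0104, 0.0074, 0.11 and 0.15. Over the array, 331, 1121 and 950 genes were lower in these 3 comparisons without C and D. Leaving out each mouse in turn gave 0 to 17, 1 to 18, 2 to 21 and 0 to 5. With the replicate block they were 4, 10, 11 and 0. The letters did not pair the mice: deviations of same-lettered mice correlated at a mean of 0.0209 over 40 pairs (-0.2054 to 0.3023). No other setting moved these counts by more than 1.5 times, and the 4 comparisons without a member called had none called under any alternative. Members spanning over 2-fold became 3 in vehicle, 1 in GL3 and 4 in SEAP-M mice after quantile normalization, 1 in PPARa mice with an SD over 0.5, and 0 in SEAP-M and PPARa mice over the 3 closest mice. The cause of these changes was not tested.

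Without C and D the sign turned for 15 of the 34 members against SEAP-M siRNA and for 15 against vehicle. Among the 22 members named by the rule these were, against SEAP-M siRNA, *Ifi27* (-0.12), *Ifi47* (-0.0228), *Ifit2* (-0.0153), *Mx1* (-0.15) and *Oas2* (-0.0567), and against vehicle *Ifi47* (-0.10), *Ifit1* (-0.0058), *Ifit2* (-0.18), *Oas3* (-0.0223), *Rsad2* (-0.67) and *Trim25* (-0.12). Signs also turned against SEAP-M siRNA for *Ifi27* after quantile normalization (-0.0096) and *Trim25* with array weights (0.0771), and against vehicle for *Mx1* with array weights (0.0021). With 1 mouse left out, *Mx1* against SEAP-M siRNA ran from -0.0262 to 0.18, *Trim25* from -0.22 to 0.0540, and *Oas3* against vehicle from -0.0212 to 0.0692. Of 1320 values of named members under alternatives, 1137 kept direction and call, 109 lost the call, 56 gained it and 18 turned. These values cover the 22 members against SEAP-M siRNA and against vehicle, where 3 and 9 members were called with all mice. Most members thus had no call to lose, and the 109 losses all come from the few that had one. Without intensities, how far a probe was above background is unknown, and small ratios of members cannot be weighed by signal.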

Other observations

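Of the 5 interferon genes on the array, *Ifnb1* and *Ifna11* were highest within the PPARa-M group in mouse A or B and not in C or D. Values of the other interferon genes in single mice are not given here. *Ifnb1* stood at 0.80, -0.10, -0.02 and 0.02 in mice A to D, and *Ifna11* at 0.87, 0.98, -0.02 and 0.23. A control mouse, SEAP-M D, had the highest median of the 5 interferon genes among all 20 mice (0.34), with *Ifnb1* at 0.65. None of these genes passed in any comparison with PPARa-M siRNA against SEAP-M siRNA or vehicle.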
